A study of Mus musculus with 24 samples.

Results

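RNA sequencing of 12 libraries was used to ask in which genes the difference between gonadal and inguinal adipose progenitors itself differed between male and female mice. The quantity was an interaction on log2(normalised count + 1), (M_APC minus M_DPP4_neg) minus (F_APC minus F_DPP4_neg). These were 12 of the 24 libraries of the series, in 4 of its 8 groups with 3 libraries each. M_APC libraries held the APC subpopulation of male gonadal white adipose tissue, and M_DPP4_neg libraries the DPP4_neg APCs of male inguinal white adipose tissue. F_APC and F_DPP4_neg libraries held the same subpopulations of females. All were PDGFRb+ cells sorted by flow cytometry from C57BL/6 mice. The labels name no allele or treatment, and the age of the mice, the sort gates and whether animals were pooled are not given in the sources used here. Of the 27179 genes in the table, 14168 were tested, those that reached 10 normalised counts in 3 or more of the 12 libraries. A positive interaction means that the gonadal cells stood higher, relative to the inguinal cells, in males than in females.

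PDGFRb marks perivascular and stromal cells of white fat, among them the progenitors that can become adipocytes. DPP4 marks a more primitive interstitial progenitor, and cells that lack it include preadipocytes closer to differentiation. Gonadal fat lies inside the abdomen beside the reproductive organs and inguinal fat lies under the skin, and in female mice the inguinal fat pad also houses a mammary gland. The same progenitors secrete matrix, growth factor antagonists and chemokines.

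The sex labels were checked on Xist and on a Y-linked gene. Xist, the RNA that silences an X chromosome, had 0 to 5.80 normalised counts in the 6 male libraries, against 14230.5 to 19203 in F_APC and 13433 to 16244 in F_DPP4_neg. Reads of Ddx3y, which lies on the Y chromosome, were at 2077 to 2374 in the male libraries, but were also present at 83.2, 70.2 and 124 in F_APC and at 26.2, 40.2 and 51.2 in F_DPP4_neg. Dpp4 itself had 159.9 to 218 in M_APC and 235 to 258 in M_DPP4_neg, against 1060.3 to 1461 in F_APC and 4213, 2124 and 1150.2 in the 3 F_DPP4_neg libraries. The DPP4_neg cells of females thus carried more Dpp4 RNA than those of males, while the DPP4_pos libraries of the series had 14883 to 20848. The interaction for Dpp4 was 0.44 ± 0.42 (SE, limma adjusted p = 0.44). Without F_DPP4_neg replicate 3 it was 0.90 (limma adjusted p = 0.028), and without F_DPP4_neg replicate 1 it was -0.04 (limma adjusted p = 0.93). Pi16, another interstitial progenitor marker, varied in the same way among the F_DPP4_neg libraries (11178, 6285 and 3359.8), and its interaction was 0.10 ± 0.39 (SE, limma adjusted p = 0.86). Reads per library ran between 9152470 and 17165535.

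Markers of other cells were read in every group and not evenly. The 10 epithelial markers summed to 25.8 to 29.4 normalised counts in M_APC against 12.3 to 32.7 in M_DPP4_neg, and to 59.5 to 213 in F_APC against 4447 to 10896 in F_DPP4_neg. Epcam, the defining epithelial adhesion molecule, had 0, 1.16 and 2.26 in M_APC against 5.07, 5.11 and 3.70 in M_DPP4_neg, and 3.96, 2.38 and 6.91 in F_APC against 803, 1913 and 1149 in F_DPP4_neg. The 10 endothelial markers summed to 4102 to 4763 in M_APC against 1019 to 1211 in M_DPP4_neg, and to 3249 to 4672 in F_APC against 1894 to 2745 in F_DPP4_neg. The 13 macrophage markers summed to 870.4 to 1349 in M_APC against 656 to 1145 in M_DPP4_neg, and to 478 to 919 in F_APC against 907 to 2220 in F_DPP4_neg. The 8 lymphocyte markers stayed between 9.51 and 150.4 in the 12 libraries. In bulk libraries, fewer cells of a type and less RNA per cell cannot be told apart. For genes named below with their highest values in F_DPP4_neg, the part of epithelial RNA was not tested.

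**Figure D1:**
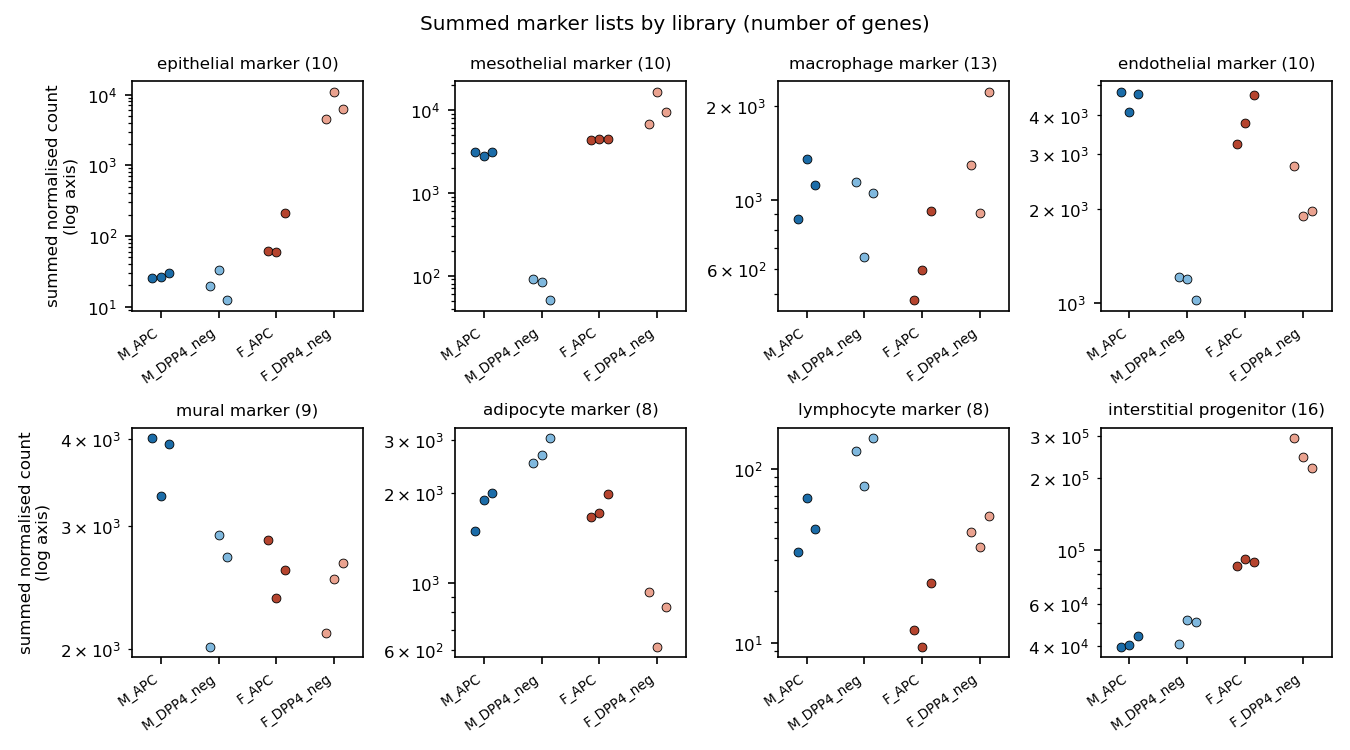
Summed normalised counts (log axis) of 8 marker lists in each library, with 1 point per library and the number of genes in each list in brackets. The epithelial sum in F_DPP4_neg lies at 4447 to 10896, above every library of the other 3 groups, and the endothelial sum is lowest in M_DPP4_neg at 1019 to 1211.

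The depot difference differed between the sexes in 5253 of the 14168 genes (37.1%) by limma at a Benjamini-Hochberg adjusted p under 0.05. It was higher in males in 2744 genes (19.4% of those tested) and lower in 2509 (17.7%). The labels do not say whether the replicates came from separate animals, so these p-values measure the spread between libraries, which may be technical. Of the called genes, 1410 higher and 1035 lower genes passed a 2-fold change. With the libraries scaled to CPM (counts over the library total), an alternative chosen after seeing the data, 6277 genes were higher and 1256 lower. That scaling put the median interaction of all tested genes at 0.44, against 0.05 on the deposited scale, so the balance of higher and lower genes turned with CPM. Quantile normalisation gave 2481 higher and 2653 lower genes, with a median of -0.03. The count models of edgeR and DESeq2 gave 2481 and 2506, and 2273 and 2581, with medians of 0.03 and 0.01. List medians below are read beside these medians of all tested genes.

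In 677 called genes (12.9%) the depot difference was called in both sexes with opposite signs. Among the other called higher genes it was larger in size in males in 1275 and in females in 1107. Among the other called lower genes it was larger in males in 1576 and in females in 618. As a description, the group whose mean lay farthest from the other 3 was M_APC in 1237 called genes, M_DPP4_neg in 1973, F_APC in 729 and F_DPP4_neg in 1314. M_APC was that group in 23.5% of called genes and in 22.8% of all tested genes, and M_DPP4_neg in 37.6% and 35.8%. F_APC was it in 13.9% of called and 18.6% of all tested genes, and F_DPP4_neg in 25% and 22.8%. All 9 male library differences lay above or below all 9 female ones in 4582 called genes (87.2%), beside 34.9% of all tested genes.

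**Figure D2:**
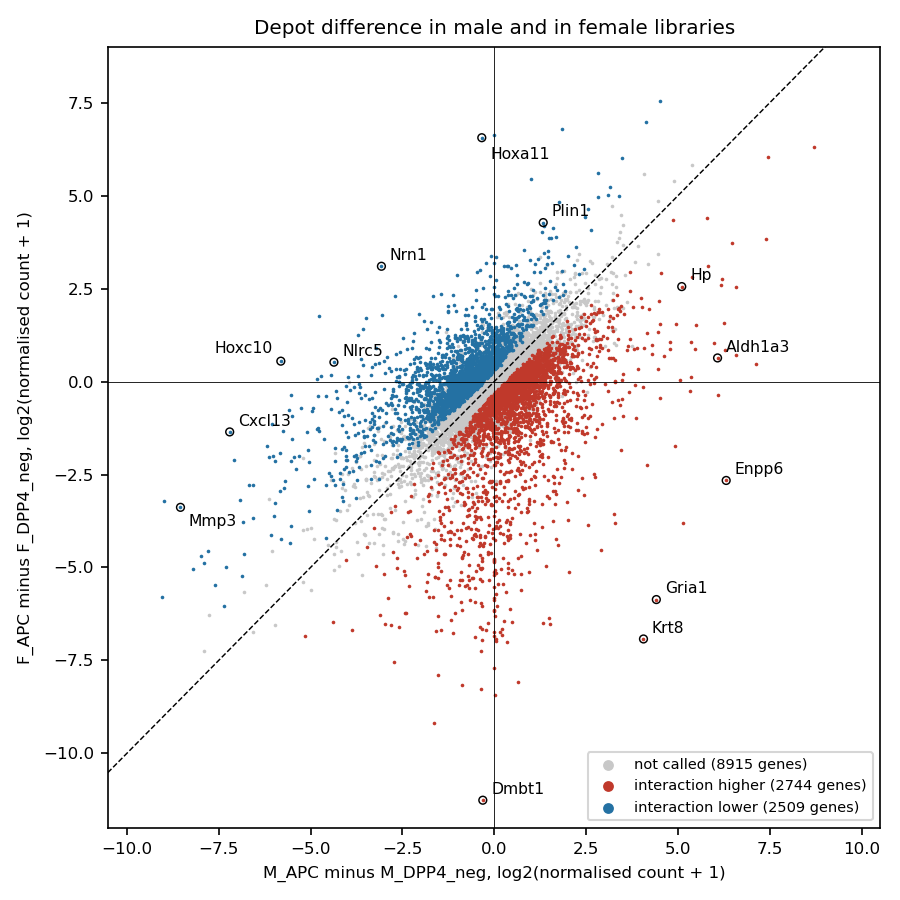
Depot difference (gonadal APC minus inguinal DPP4_neg, log2 of normalised count + 1) in male libraries on the x axis and female libraries on the y axis, with 1 point per tested gene and colours for the 2744 called higher and 2509 called lower. Genes on the dashed line have the same depot difference in both sexes, and named genes such as Gria1 and Nrn1 lie in the quadrants where the signs are opposite.

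The interferon and antigen presentation genes were called almost entirely on the lower side. In males they were low in gonadal and high in inguinal cells, with median depot differences of -1.96 and -1.31 for the 2 lists, and in females the depots lay closer, at -0.22 and 0.17. Of 20 interferon response genes, 17 were called lower and 0 higher, with a median interaction of -1.47. Of 16 genes of MHC class I presentation, which loads peptides onto the surface molecules read by T cells, 15 were lower and 0 higher, with a median of -1.61. Both medians stayed negative with CPM (-1.08 and -1.22) and with quantile normalisation (-1.51 and -1.38).

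Nlrc5, the transactivator of MHC class I genes, had 68.7, 62.6 and 66.7 in M_APC against 1141, 1505 and 1520.3 in M_DPP4_neg, and 388, 345 and 343 in F_APC against 203, 253 and 299.7 in F_DPP4_neg. M_APC was lowest, M_DPP4_neg highest, and the groups did not overlap. Its interaction was -4.89 ± 0.20 (SE, limma adjusted p = 8.6e-11). B2m, the light chain of every MHC class I molecule, had 8178, 8627 and 7022 in M_APC against 40823, 28986 and 31989 in M_DPP4_neg, and 21234, 21499 and 20156 in F_APC against 16019, 18022 and 18099 in F_DPP4_neg. All 3 M_DPP4_neg libraries lay above all others and all 3 M_APC libraries below them, and the interaction was -2.36 ± 0.17 (SE, limma adjusted p = 2.8e-08). H2-Q7 and H2-Q6, 2 nonclassical heavy chains whose reads may be shared between near-identical copies, had interactions of -3.91 ± 0.26 (SE, limma adjusted p = 1.3e-08) and -3.42 ± 0.24 (SE, limma adjusted p = 2.8e-08).

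Among interferon response genes, Ifit3, an RNA-binding antiviral protein, had 275, 236 and 235 in M_APC against 1882, 1646 and 1607 in M_DPP4_neg, and 1015, 749 and 683 in F_APC against 818, 1009 and 1330.2 in F_DPP4_neg. Its male depots were separate and its female depots overlapped, with an interaction of -2.42 ± 0.22 (SE, limma adjusted p = 4.9e-07). Ifit1, its relative that binds viral RNA caps, had an interaction of -2.42 ± 0.26 (SE, limma adjusted p = 3e-06), with 727 to 823 in M_APC against 2731 to 4063 over the other groups apart from 1 F_DPP4_neg library at 1819. Isg15, a ubiquitin-like modifier, had 207 to 259 in M_APC against 1276 to 2121 in M_DPP4_neg, and 487 to 583 in F_APC against 655 to 765 in F_DPP4_neg. For Oas1a, a sensor of double-stranded RNA with near-identical copies, the interaction was -2.88 ± 0.20 (SE, limma adjusted p = 2e-08). M_APC was the group farthest from the rest in 13 of the 17 called interferon genes, and M_DPP4_neg in 12 of the 15 called MHC class I genes.

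The promoters of 4 of these genes show the letters that interferon-activated factors of the IRF and STAT families are known to bind. Only called lower genes with a match in the window could be shown, so the 4 are examples and not a test. Each run is the RefSeq window of GRCm38.p6 from 250 bases before to 50 after the start, 5′ to 3′ on the gene's strand. Capitals mark GAAA, any 2 bases and GAAA again, the core of the interferon-stimulated response element, searched on both strands and allowed to overlap, so that a match on the other strand reads as its reverse complement.
Ifit3, chr19:34583279-34583578, plus strand: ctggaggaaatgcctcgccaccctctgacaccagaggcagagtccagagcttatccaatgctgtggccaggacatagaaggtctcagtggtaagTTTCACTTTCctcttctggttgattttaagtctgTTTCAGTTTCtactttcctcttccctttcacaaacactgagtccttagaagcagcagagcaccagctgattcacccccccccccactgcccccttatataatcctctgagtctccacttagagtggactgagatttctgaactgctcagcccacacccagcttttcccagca
Ifit1, chr19:34640639-34640938, plus strand: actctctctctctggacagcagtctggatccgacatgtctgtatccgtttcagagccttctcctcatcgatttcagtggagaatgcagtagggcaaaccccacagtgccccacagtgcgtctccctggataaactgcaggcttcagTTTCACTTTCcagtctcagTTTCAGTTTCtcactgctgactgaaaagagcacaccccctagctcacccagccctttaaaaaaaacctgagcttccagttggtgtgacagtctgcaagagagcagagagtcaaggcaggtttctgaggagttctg
Isg15, chr4:156200769-156201068, minus strand: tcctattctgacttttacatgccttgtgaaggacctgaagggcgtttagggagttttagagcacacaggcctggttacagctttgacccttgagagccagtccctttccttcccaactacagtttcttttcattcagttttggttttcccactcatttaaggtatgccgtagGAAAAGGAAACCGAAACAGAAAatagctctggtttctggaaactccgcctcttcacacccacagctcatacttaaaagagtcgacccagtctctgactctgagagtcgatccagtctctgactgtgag
B2m, chr2:122147437-122147736, plus strand: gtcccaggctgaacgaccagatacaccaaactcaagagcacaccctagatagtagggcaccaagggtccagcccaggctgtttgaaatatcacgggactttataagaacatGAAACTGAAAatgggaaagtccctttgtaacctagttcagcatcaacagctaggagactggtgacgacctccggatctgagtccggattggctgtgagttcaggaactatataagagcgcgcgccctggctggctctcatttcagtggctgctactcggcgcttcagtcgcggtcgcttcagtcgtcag
The promoters of Ifit3 and Ifit1 hold 2 matches each, that of Isg15 3 overlapping ones and that of B2m 1.

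Over all 27025 genes with such a window in the promoter reference, whether or not they were in the count table, 1079 (3.99%) held the motif. Among tested genes with a window it was in 410 of 10874 (3.77%), among called higher genes in 59 of 2126 (2.78%) and among called lower genes in 135 of 1877 (7.19%). It was in 9 of the 12 called lower interferon response genes with a window and in 3 of the 13 called lower MHC class I genes. These are matches of letters in 1 window per gene, not measured binding.

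Chemokines and cytokines, the secreted signals that recruit and instruct immune cells, were mostly on the lower side as well. Of 26 tested, 19 were lower and 2 higher, with a median of -1.77. Cxcl13, the attractant of B cells (chr5:95956939-95961068), had 18.2, 16.2 and 15.8 in M_APC against 3265, 2141 and 2538 in M_DPP4_neg, and 149, 153 and 227 in F_APC against 528, 396 and 417 in F_DPP4_neg. The inguinal libraries were the higher ones in both sexes and no groups overlapped, with a depot difference of -7.20 in males and -1.35 in females. The interaction was -5.85 ± 0.24 (SE, limma adjusted p = 1.4e-10). Cxcl5, an attractant of neutrophils, had 47.2, 27.8 and 45.3 in M_APC against 2919, 1901 and 1824 in M_DPP4_neg, and 82.2, 59.5 and 96.8 in F_APC against 197, 179.5 and 216 in F_DPP4_neg. M_DPP4_neg stood at 1824 to 2919 and no other library exceeded 216. The interaction was -4.43 ± 0.31 (SE, limma adjusted p = 2e-08). Csf2, the growth factor GM-CSF, had at most 124 in the other groups and 452 to 642 in M_DPP4_neg, with an interaction of -4.02 ± 0.48 (SE, limma adjusted p = 7.7e-06).

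Complement and acute phase genes were split, with 9 of 21 lower and 3 higher (5 higher with quantile normalisation and 6 with CPM). Saa3, an acute phase apolipoprotein, had at most 153 in the other groups and 592 to 1007 in M_DPP4_neg, with an interaction of -2.63 ± 0.29 (SE, limma adjusted p = 3.2e-06). Hp, the haemoglobin scavenger haptoglobin, went the other way. It had 4502, 4404 and 4172 in M_APC against 158, 89.9 and 139 in M_DPP4_neg, and 807, 1043 and 1091 in F_APC against 144, 181 and 171 in F_DPP4_neg. The gonadal libraries were higher in both sexes, most in M_APC, and the interaction was 2.55 ± 0.23 (SE, limma adjusted p = 4.8e-07). C1qa, a complement subunit made chiefly by macrophages, had an interaction of 3.86 ± 0.53 (SE, limma adjusted p = 3.1e-05). It is itself 1 of the 13 macrophage markers, of which 6 were higher. The part of macrophage RNA in the C1qa value was not tested.

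**Figure D3:**
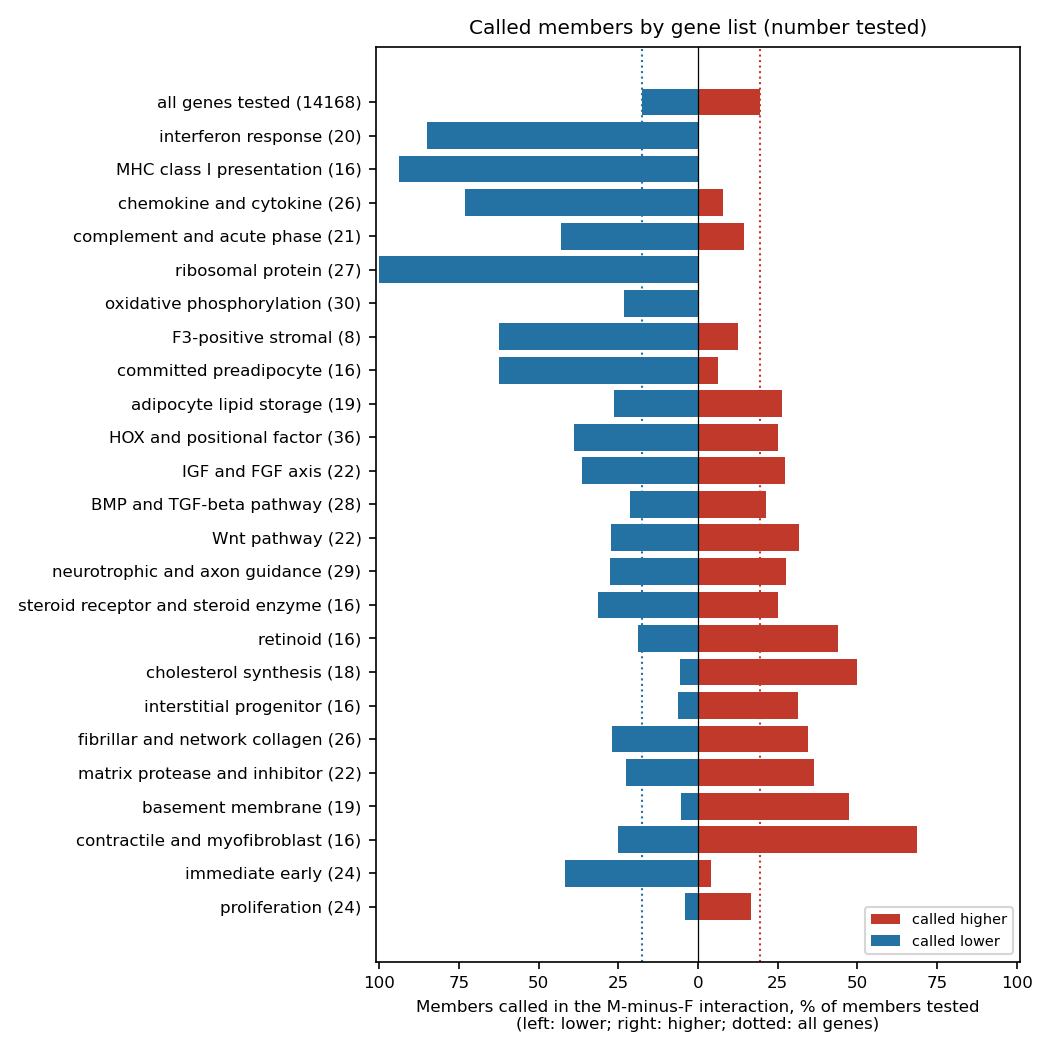
Share of the tested members of each list called higher (right, red) or lower (left, blue) in the interaction, with the number tested in brackets and dotted lines at the shares over all genes (19.4% and 17.7%). All 27 ribosomal protein genes and 15 of 16 MHC class I genes lie on the lower side, whereas the balance of the immediate early and oxidative phosphorylation lists turns with the scaling (8 higher and 5 lower with quantile normalisation for immediate early genes, 7 and 1 with CPM for oxidative phosphorylation genes).

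Of 36 tested HOX and other positional factors, 14 were lower and 9 higher, with a median of -0.39, and with CPM 9 were lower and 14 higher, with a median of -0.03. HOX factors record where along the body a stromal cell arose, and 4 of the 12 lowest named genes lie in these clusters. Hoxc10, a posterior HOX factor (chr15:102966796-102971898), had 7.51, 10.4 and 3.39 in M_APC against 428, 405 and 430.3 in M_DPP4_neg, and 318, 290.2 and 315 in F_APC against 214, 177 and 244 in F_DPP4_neg. It was present in both inguinal groups and in F_APC, and M_APC alone was near 0. The interaction was -6.36 ± 0.34 (SE, limma adjusted p = 1.5e-09). Hoxa10, which patterns the reproductive tract, had 0, 1.16 and 4.53 in M_APC against 34.5, 23.5 and 29.6 in M_DPP4_neg, and 104, 136 and 127 in F_APC against 47.7, 50.3 and 52.0 in F_DPP4_neg, with an interaction of -4.97 ± 0.60 (SE, limma adjusted p = 8.2e-06). Hoxa11, its neighbour in the cluster, had 109.9, 113 and 120.3 in F_APC, and between 0 and 1.02 in the other 9 libraries.

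Hoxa11os, the antisense transcript of Hoxa11, had 122, 155 and 158 in F_APC and at most 0.794 elsewhere. The strand setting of the counting is not given in the sources used here, so reads of this pair cannot be told apart. The log2 interactions of both (-6.90 and -6.62) depend on the pseudocount because 3 groups are near 0.

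Ligands of the BMP family and secreted antagonists of Wnt signals were among the called genes. BMP signals push progenitors towards adipocytes, and Wnt signals hold them back. Bmp6, a BMP ligand, had 132, 160.0 and 155 in M_APC against 10.1, 9.19 and 7.40 in M_DPP4_neg, and 126, 117 and 120.3 in F_APC against 173, 78.9 and 61.9 in F_DPP4_neg. M_DPP4_neg was the low group, and the interaction was 3.58 ± 0.39 (SE, limma adjusted p = 2.7e-06). Bmp7, a ligand that promotes brown fat formation, had an interaction of 3.99 ± 0.65 (SE, limma adjusted p = 0.00016) with its highest values in F_DPP4_neg, 78.4 to 199. Of 28 BMP and TGF-beta genes, 6 were higher and 6 lower (13 and 5 with CPM).

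Sfrp2, a secreted binder of Wnt proteins, had 253, 350.1 and 316 in M_APC against 8919, 9037 and 7808 in M_DPP4_neg, and 1358, 1253 and 1554 in F_APC against 2792, 3338 and 4079.9 in F_DPP4_neg. The inguinal libraries were higher in both sexes, with the wider gap in males, and the interaction was -3.53 ± 0.19 (SE, limma adjusted p = 1.5e-09). Sfrp4, of the same family, had an interaction of -3.32 ± 0.31 (SE, limma adjusted p = 5.8e-07), on 50.9 to 52.6 in M_APC against 1852 to 2620.3 in M_DPP4_neg, and 351 to 598 in F_APC against 1337 to 2678 in F_DPP4_neg. Frzb, a further member, was high in F_APC only (184 to 249, against at most 33.0), with an interaction of -2.73 ± 0.62 (SE, limma adjusted p = 0.0026) that missed the threshold in edgeR at -2.35 (adjusted p = 0.057) and was called in DESeq2 at -2.34 (adjusted p = 0.008). Of 22 Wnt pathway genes, 7 were higher and 6 lower, and with CPM 10 and 5.

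Of 22 genes of the IGF and FGF axis, 6 were higher and 8 lower. Igfbp5, which holds IGF in the matrix, had 808, 596 and 783 in M_APC against 19642, 22319 and 24487 in M_DPP4_neg, and 9736, 9078 and 8245 in F_APC against 20319.5, 14035 and 11478 in F_DPP4_neg. M_APC lay far below every other library. The interaction was -4.21 ± 0.23 (SE, limma adjusted p = 2e-09). Igfbp3, the main carrier of IGF in serum, had 289, 263 and 308 in M_APC against 2397, 1987 and 2128 in M_DPP4_neg, and 9994, 7097 and 8387 in F_APC against 5949, 5031 and 4889 in F_DPP4_neg. M_APC was again lowest, the F groups were highest, and the interaction was -3.59 ± 0.17 (SE, limma adjusted p = 5e-10). Pappa2, a protease that cuts IGF binding proteins, was higher instead, with at most 39.7 in the other groups and 92.9 to 175 in F_DPP4_neg, and an interaction of 3.86 ± 0.55 (SE, limma adjusted p = 4.3e-05). The median of the 22 was -0.33 on the deposited scale, beside 0.05 over all tested genes, and 0.05 with CPM, beside 0.44. With quantile normalisation, edgeR and DESeq2 the list median was -0.22, -0.37 and -0.39.

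Neurotrophic and axon guidance genes were called in both directions. Ngfr, the neurotrophin receptor p75, had 1.07, 4.64 and 1.13 in M_APC against 26.4, 22.5 and 21.0 in M_DPP4_neg, and 871, 1578 and 868 in F_APC against 562, 153 and 339 in F_DPP4_neg. It was read mainly in the female libraries, and the interaction was -4.83 ± 0.59 (SE, limma adjusted p = 9.1e-06). Slit2, an axon guidance cue, was higher at 2.92 ± 0.22 (SE, limma adjusted p = 5.5e-08), with M_DPP4_neg lowest (253 to 312) and F_DPP4_neg highest (1552 to 2653). The list of 29 had 8 higher and 8 lower (13 and 8 with CPM).

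Genes of retinoid and of steroid metabolism were called in both directions. Aldh1a3, an enzyme that makes retinoic acid, had 3654, 3429 and 3423 in M_APC against 72.1, 46.0 and 39.5 in M_DPP4_neg, and 799, 713 and 864 in F_APC against 889, 449 and 328 in F_DPP4_neg. M_APC was highest and M_DPP4_neg lowest, and the female groups overlapped. The interaction was 5.44 ± 0.37 (SE, limma adjusted p = 1.7e-08). Cyp26b1, which degrades retinoic acid, went the opposite way at -2.29 ± 0.36 (SE, limma adjusted p = 0.00013), with at most 29.0 in both gonadal groups, 564 to 627 in M_DPP4_neg and 109 to 200.4 in F_DPP4_neg. Crabp1, which carries retinoic acid in the cytoplasm, was hardly read in the other groups (at most 4.15) but was at 79.3 to 158 in F_DPP4_neg, so its value of 3.66 ± 0.70 (SE, limma adjusted p = 0.00063) depends on the pseudocount and missed the threshold in edgeR (adjusted p = 0.78) and in DESeq2 (0.23). In the list of 16, 7 were higher and 3 lower.

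Hsd11b1, which regenerates active glucocorticoid, had 8019.9, 8767 and 7489 in M_APC against 2612, 2421 and 2286 in M_DPP4_neg, and 975, 951 and 1087 in F_APC against 1262, 1534 and 1128 in F_DPP4_neg. All 3 M_APC libraries lay above all others, and the depot order was opposite in females. The interaction was 2.10 ± 0.15 (SE, limma adjusted p = 2.3e-08). Esr1, the oestrogen receptor alpha, had 382, 294 and 361 in M_APC against 842, 1210.1 and 1408 in M_DPP4_neg, and 989, 738 and 886 in F_APC against 746, 706 and 624 in F_DPP4_neg. M_APC was lowest and the interaction was -2.04 ± 0.23 (SE, limma adjusted p = 3.4e-06). Pgr, the progesterone receptor, had at most 2.47 in males, 9.51 to 24.9 in F_APC and 194 to 432 in F_DPP4_neg. Its interaction was 4.24 ± 0.68 (SE, limma adjusted p = 0.00014). It just missed the threshold in edgeR at 4.17 (adjusted p = 0.053) and was called in DESeq2 at 4.16 (adjusted p = 0.0011). The epithelial markers were high in F_DPP4_neg too, and the part of epithelial RNA in the Pgr value was not tested. Akr1c18, which inactivates progesterone, had 1656, 446 and 218 in F_DPP4_neg and an interaction of 2.64 ± 0.88 (SE, limma adjusted p = 0.026). That call was lost in edgeR (adjusted p = 0.66), in DESeq2 (0.23) and without several single libraries (up to 0.072). In the list of 16, 4 were higher and 5 lower (2 higher in edgeR, 3 in DESeq2, and 9 higher and 3 lower with CPM).

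**Figure D4:**
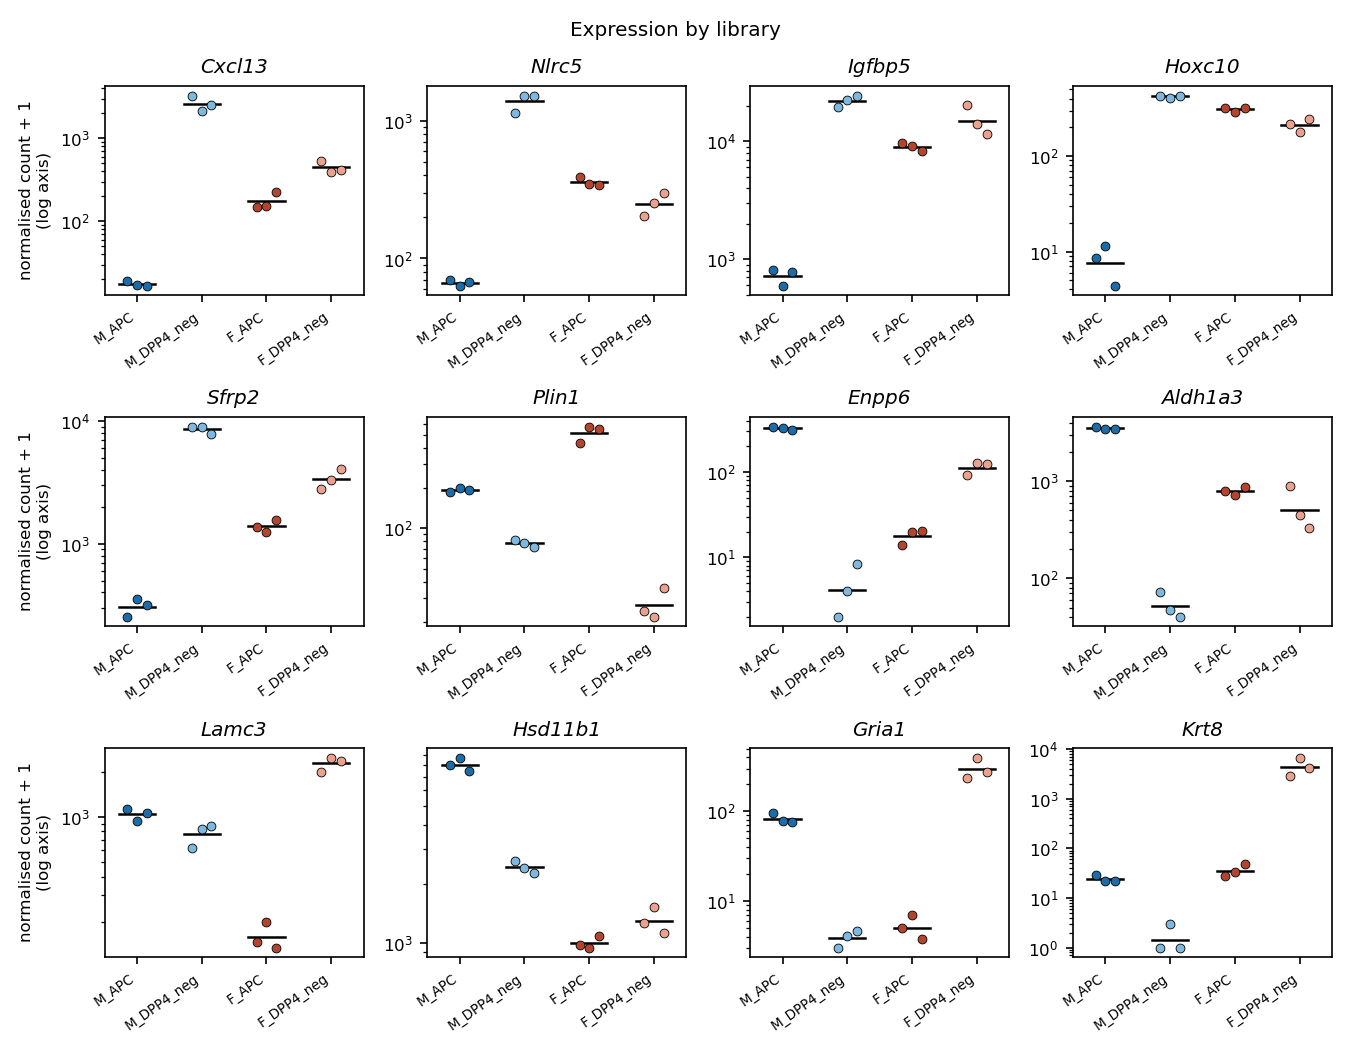
Normalised count + 1 (log axis) of 12 named genes in each of the 12 libraries, with 1 point per library and a bar at the mean of the log2 values. Genes of the upper rows such as Cxcl13, Igfbp5 and Hoxc10 have their lowest points in M_APC, and Gria1 and Krt8 have opposite depot differences in males and females.

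Matrix proteases and collagens were called in both directions. Mmp3, the stromelysin that cleaves many matrix proteins, had 56.9, 88.1 and 87.1 in M_APC against 34279.6, 24871 and 27467 in M_DPP4_neg, and 1142, 1069 and 1047 in F_APC against 10291, 11149 and 12668 in F_DPP4_neg. Inguinal libraries were higher in both sexes, with a depot difference of -8.54 in males and -3.38 in females. The interaction was -5.16 ± 0.21 (SE, limma adjusted p = 8.6e-11). Prg4, the joint lubricant lubricin, had a like pattern at -4.96 ± 0.37 (SE, limma adjusted p = 4.7e-08), with 18.5 to 50.9 in M_APC against 3863 to 4443 in M_DPP4_neg, and 172 to 245 in F_APC against 666 to 1200.5 in F_DPP4_neg. Of 22 proteases and inhibitors, 8 were higher and 5 lower (13 and 5 with CPM).

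Among collagens, Col6a5, a chain of beaded filament collagen, had 15562, 14798 and 16561 in M_APC against 746, 577 and 599 in M_DPP4_neg, and 3511, 2888 and 3458 in F_APC against 4170.2, 1073 and 1884 in F_DPP4_neg. M_APC was above every other library, and the interaction was 3.93 ± 0.43 (SE, limma adjusted p = 2.7e-06). Col4a6, a basement membrane chain, had 742 to 838 in M_APC and at most 104 in the other groups, with an interaction of 3.31 ± 0.22 (SE, limma adjusted p = 1.3e-08). Col7a1, the anchoring fibril collagen of skin, was highest in F_DPP4_neg (232 to 452), with an interaction of 3.19 ± 0.35 (SE, limma adjusted p = 3.5e-06). Col1a1, the chief fibrillar collagen, was called at -0.96 ± 0.21 (SE, limma adjusted p = 0.0017), but with quantile normalisation its interaction was -0.01. Over 26 collagens 9 were higher and 7 lower, and 13 and 5 with quantile normalisation.

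Basement membrane genes leaned to the higher side, with 9 of 19 higher and 1 lower and a median of 0.63. Lamc3, a laminin gamma chain, had 1128, 938 and 1066 in M_APC against 624, 829 and 868 in M_DPP4_neg, and 146, 199 and 134 in F_APC against 2000.5, 2479 and 2349 in F_DPP4_neg. F_APC was the low group, and the interaction was 4.28 ± 0.21 (SE, limma adjusted p = 6.3e-10). Egflam, the matrix protein pikachurin, had 716, 698 and 709 in M_APC against 194, 187 and 218 in M_DPP4_neg, and 302, 229.5 and 212 in F_APC against 1091, 1901 and 1471 in F_DPP4_neg, with depots in opposite order in the 2 sexes and an interaction of 4.39 ± 0.23 (SE, limma adjusted p = 1.2e-09). Lama5, a laminin alpha chain found under many epithelia, had an interaction of 4.30 ± 0.38 (SE, limma adjusted p = 3e-07), with at most 191 in the other groups and 791 to 1719.6 in F_DPP4_neg, where the epithelial markers were high too. The part of epithelial RNA in that value was not tested. Quantile normalisation gave 13 higher and 0 lower, and CPM 14 and 0.

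Contractile and myofibroblast genes were higher in 11 of 16 and lower in 4, with a median of 0.66. The lower count was 1 with quantile normalisation, 0 with CPM and 2 without M_APC replicate 1. Tagln, the actin-binding protein transgelin, had 333, 283 and 357 in M_APC against 70.0, 79.7 and 54.3 in M_DPP4_neg, and 208, 171 and 256 in F_APC against 331, 608 and 454 in F_DPP4_neg. M_DPP4_neg was lowest, and the interaction was 3.35 ± 0.28 (SE, limma adjusted p = 1.7e-07). Lmod1, which nucleates smooth muscle actin filaments, had 291 to 326 in M_APC and at most 19.4 in the other groups, with an interaction of 3.90 ± 0.61 (SE, limma adjusted p = 0.00012). Acta2, smooth muscle actin, had an interaction of 2.85 ± 0.46 (SE, limma adjusted p = 0.00016). Of the 9 mural cell markers, which include Acta2, 3 were higher and 1 lower, and they summed to 3319 to 4014 in M_APC against 2015 to 2918 in M_DPP4_neg, and 2364 to 2864 in F_APC against 2112 to 2660 in F_DPP4_neg. M_DPP4_neg was the group apart in 8 called contractile genes. F_DPP4_neg, where the epithelial markers were high, was it in 6. The parts of mural and of epithelial RNA in the contractile values were not tested.

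Vascular and immune markers were called as well. Of the 10 endothelial markers 8 were higher (5 with quantile normalisation), with M_DPP4_neg the group apart in 8. Kdr, the main VEGF receptor of endothelium, had 283, 226 and 294 in M_APC against 30.4, 32.7 and 18.5 in M_DPP4_neg, and 275, 359 and 478 in F_APC against 369, 199.7 and 187 in F_DPP4_neg. M_DPP4_neg was lowest, the other groups overlapped, and the interaction was 2.69 ± 0.36 (SE, limma adjusted p = 2.8e-05). Vwf, the endothelial clotting factor, had 3.93 ± 0.62 (SE, limma adjusted p = 0.00013), and Mrc1, the mannose receptor of tissue macrophages, 3.90 ± 0.53 (SE, limma adjusted p = 2.9e-05). Of 13 macrophage markers 6 were higher and 0 lower.

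Of 16 committed preadipocyte genes, 10 were lower and 1 higher, with a median of -0.64 (7 lower and 2 higher under both quantile normalisation and CPM). Lpl, the lipase that frees fatty acids for uptake, had 23026, 26060.5 and 23295 in M_APC against 38076, 33201 and 34582 in M_DPP4_neg, and 56956, 57966 and 61109 in F_APC against 18000.4, 24156 and 28031 in F_DPP4_neg. F_APC was highest, and the depots were in opposite order in males and females. The interaction was -1.90 ± 0.19 (SE, limma adjusted p = 1.3e-06). Car3, a carbonic anhydrase abundant in fat, had 608, 721 and 646 in M_APC against 647, 453 and 540.1 in M_DPP4_neg, and 2169, 2321 and 2644 in F_APC against 256, 226 and 354 in F_DPP4_neg. F_APC was again highest, and the interaction was -2.83 ± 0.21 (SE, limma adjusted p = 4.5e-08). Icam1, the adhesion molecule of preadipocytes, stood at 6129.7 to 12777 in the other groups and highest, at 31544 to 33317, in M_DPP4_neg, with an interaction of -2.16 ± 0.13 (SE, limma adjusted p = 6.7e-09). Pdgfrb, the receptor the cells were sorted by, was the 1 member that was higher, at 1.18 ± 0.13 (SE, limma adjusted p = 3.2e-06), with 6277, 6045 and 6134 in M_APC against 3720.4, 4306 and 4213 in M_DPP4_neg, and 2761, 2299.8 and 2382 in F_APC against 3338, 3863 and 3920.5 in F_DPP4_neg.

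Of 8 genes of the F3-positive stromal population, known from mouse fat as cells that restrain adipogenesis, 5 were lower and 1 higher. Clec11a, the growth factor osteolectin, had 128, 111 and 107 in M_APC against 2022, 1753 and 1736 in M_DPP4_neg, and 546, 574 and 529.5 in F_APC against 446, 518 and 551 in F_DPP4_neg. M_APC was lowest, M_DPP4_neg highest and the female depots overlapped. The interaction was -4.11 ± 0.14 (SE, limma adjusted p = 5e-11). Mgp, an inhibitor of calcification, had 3173 to 3725 in F_APC and at most 2615 elsewhere, with an interaction of -3.16 ± 0.26 (SE, limma adjusted p = 1.5e-07). The gap between F_APC and the highest other library is too small to give that value, which also rests on differences among the other groups.

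Lipid storage genes were split, with 5 of 19 higher and 5 lower (8 and 4 with CPM). Plin1, a lipid droplet coat protein, had 186, 201 and 193 in M_APC against 71.5 to 80.2 in M_DPP4_neg, and 431, 574 and 550.3 in F_APC against 20.9 to 34.7 in F_DPP4_neg. Gonadal libraries were higher in both sexes, with the wider gap in females. The interaction was -2.94 ± 0.24 (SE, limma adjusted p = 1.2e-07). Plin4, of the same family, was at most 382 in the other groups and 1854 to 2663 in M_DPP4_neg, with an interaction of -3.01 ± 0.20 (SE, limma adjusted p = 1.3e-08). Adipoq, the adipocyte hormone adiponectin, had an interaction of -1.87 ± 0.36 (SE, limma adjusted p = 0.00073). These are also markers of mature adipocytes, whose 8 genes summed to 1494 to 2002 in M_APC against 2508 to 3037 in M_DPP4_neg, and 1665 to 1985 in F_APC against 615 to 934 in F_DPP4_neg. Plin4 alone, at 1854 to 2663, made up most of the M_DPP4_neg sum. The median depot difference of the 8 markers was positive in both sexes, at 1.44 in males and 2.19 in females. The part of adipocyte RNA in the values of the lipid storage genes was not tested.

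Cholesterol synthesis genes were higher in 9 of 18 and lower in 1, with a median of 0.44. With quantile normalisation 6 were higher and 1 lower, and with CPM 13 and 1. Fdft1, squalene synthase, was lowest in F_APC (62.2 to 64.2, against 130.3 to 243 in the other groups), with an interaction of 1.02 ± 0.19 (SE, limma adjusted p = 0.00055). Insig1, which holds the pathway in check, was lower at -0.77 ± 0.13 (SE, limma adjusted p = 0.00027), with M_DPP4_neg highest.

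Ribosomal protein genes were lower in all 27 tested, with interactions of -1.21 to -0.69 and a median of -0.94. With quantile normalisation 24 were lower and with CPM 26, and the median stayed negative (-0.55 and -0.54). M_APC was the group farthest from the others in all 27. They summed to 73348 to 84764 in M_APC against 196115, 130820 and 141184 in M_DPP4_neg, and to 132034 to 144970 in F_APC against 131766 to 143137 in F_DPP4_neg. The first M_DPP4_neg library thus stood above the other two, and all 27 were still lower with any single library left out. Rps3, a small subunit protein, had an interaction of -1.17 ± 0.21 (SE, limma adjusted p = 0.0004), and Rpl23, a large subunit protein, -1.15 ± 0.17 (SE, limma adjusted p = 7.7e-05). Reads of these genes may be shared with processed copies.

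No direction held across all scalings, CPM included, in the other housekeeping and stress lists. Of 24 immediate early genes, transcription factors that rise within minutes of stimulation or tissue dissociation, 10 were lower and 1 higher with a median of -0.25. Quantile normalisation gave 5 lower and 8 higher with a median of 0.20, and CPM 5 and 6. Their sum was 525987 to 549001 in M_APC against 254970 to 261920 in M_DPP4_neg, and 576549 to 599754 in F_APC against 179272 to 229644 in F_DPP4_neg. Nr4a1, an orphan nuclear receptor, had 3393, 3398 and 3529.7 in M_APC against 2141, 2240.5 and 2142 in M_DPP4_neg, and 7904, 12201 and 12880.5 in F_APC against 2550.3, 2460.2 and 2779 in F_DPP4_neg, with F_APC highest and an interaction of -1.39 ± 0.19 (SE, limma adjusted p = 2.6e-05). Oxidative phosphorylation genes had 7 lower and 0 higher of 30, and with CPM 1 and 7. Quantile normalisation gave 4 lower and 1 higher, edgeR 8 and 0, and DESeq2 9 and 0. The median of these 30 was -0.21, beside 0.05 over all tested genes, and 0.18 with CPM, beside 0.44. Of 24 proliferation genes, 4 were higher and 1 lower (1 and 2 with quantile normalisation).

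Several genes at the high end of the table were highest in F_DPP4_neg. Krt8, a keratin of simple epithelia and mesothelium (chr15:101996711-102004342), had 27.9, 20.9 and 21.5 in M_APC against 0, 2.04 and 0 in M_DPP4_neg, and 26.7, 32.1 and 47.0 in F_APC against 2851, 6780.1 and 4071 in F_DPP4_neg. F_DPP4_neg lay far above all other libraries, and in males the gonadal libraries were the higher ones. The interaction was 10.99 ± 0.54 (SE, limma adjusted p = 7.2e-10), and its partner keratin Krt18 had 7.85 ± 0.55 (SE, limma adjusted p = 2.2e-08). Cldn4, a tight junction claudin, had at most 51.2 in the other groups and 2073, 5064 and 2777 in F_DPP4_neg. Csn3, the milk protein kappa-casein, had 0 in the other 9 libraries and 199, 197 and 228 in F_DPP4_neg.

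Dmbt1, a mucosal scavenger receptor, had at most 3.06 in the other groups and 1545, 4600.0 and 2073 in F_DPP4_neg. Fgb, the fibrinogen beta chain, had at most 1.13 in the other groups and 145, 540.2 and 509 there. Against groups at or near 0 the log2 interactions of Dmbt1, Cldn4, Fgb, Csn3 and Clca3a2, a chloride channel accessory protein, which were 10.95, 8.73, 8.45, 7.70 and 7.90, depend on the pseudocount. In edgeR on the recovered reads their values were 13.12, 8.63, 11.65, 10.65 and 10.63, and they missed the threshold (adjusted p = 0.26, 0.075, 0.18, 1 and 0.14). DESeq2 on the same reads called all 5, at 12.21, 8.66, 10.86, 9.93 and 9.75. Of the 10 epithelial markers, 9 were higher in limma, 8 in DESeq2 and 3 in edgeR, with medians of 5.61, 6.37 and 6.46, and F_DPP4_neg was the group apart in 9. The part of epithelial RNA in the values of this group was not tested.

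Some genes at this end were not high in F_DPP4_neg alone. Enpp6, a choline-specific phosphodiesterase (chr8:46939197-47096762), had 340.2, 325 and 311 in M_APC against 1.01, 3.06 and 7.40 in M_DPP4_neg, and 12.9, 19.0 and 19.4 in F_APC against 90.6, 126 and 121 in F_DPP4_neg. Males had more in gonadal and females more in inguinal cells, and no groups overlapped. The interaction was 8.97 ± 0.51 (SE, limma adjusted p = 2.8e-09). Gria1, an AMPA glutamate receptor subunit (chr11:57011571-57330244), had 94.4, 76.5 and 74.7 in M_APC against 2.03, 3.06 and 3.70 in M_DPP4_neg, and 3.96, 5.95 and 2.77 in F_APC against 232, 398 and 274 in F_DPP4_neg. M_APC and F_DPP4_neg were high and the other groups were at 5.95 or below. The interaction was 10.28 ± 0.40 (SE, limma adjusted p = 8.6e-11). Nxph3, a ligand of neurexins (chr11:95509845-95514565), had 39.7, 59.1 and 53.2 in M_APC against 0, 2.04 and 0 in M_DPP4_neg, and 19.8, 19.0 and 6.91 in F_APC against 144, 260.0 and 238 in F_DPP4_neg. Its depots were in opposite order in males and females too, and the interaction was 8.94 ± 0.62 (SE, limma adjusted p = 2.2e-08).

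The sign of the depot difference was opposite in a further pair named by the rule. Krt7, a keratin of glandular epithelia (chr15:101412403-101427806), had an interaction of 7.08 ± 0.74 (SE, limma adjusted p = 1.9e-06) on 12.9, 11.6 and 20.4 in M_APC against 0, 3.06 and 0 in M_DPP4_neg, and 38.6, 29.7 and 106 in F_APC against 450.5, 1131 and 689 in F_DPP4_neg. Nrn1, neuritin, which promotes neurite growth (chr13:36725622-36734477), had 0, 6.96 and 1.13 in M_APC against 18.3, 18.4 and 25.9 in M_DPP4_neg, and 94.1, 96.3 and 118 in F_APC against 13.5, 10.8 and 9.08 in F_DPP4_neg. It was the lower one of the 6, with more in inguinal cells of males and more in gonadal cells of females, and an interaction of -6.17 ± 0.73 (SE, limma adjusted p = 6.9e-06). Emb, an adhesion protein of the basigin family, was at 5.37 to 11.6 in M_APC and 379 to 981 in the other groups, with an interaction of -5.15 ± 0.32 (SE, limma adjusted p = 6.5e-09). Cox8b, a cytochrome oxidase subunit of brown and beige fat, had 3.22, 16.2 and 9.05 in M_APC against 129.9, 74.5 and 106 in M_DPP4_neg, and 29.7, 19.0 and 30.4 in F_APC against 4.77, 6.97 and 10.7 in F_DPP4_neg. M_DPP4_neg was its highest group, and the interaction was -5.22 ± 0.60 (SE, limma adjusted p = 5.5e-06).

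The same interaction was computed in the other 12 libraries of the series, FIP of gonadal tissue minus DPP4_pos APCs of inguinal tissue, males minus females, an addition chosen after seeing the data. These share no library with the comparison above, and whether they came from the same animals is not given in the sources used here. There 5911 of 13455 genes were called (43.9%), 19.2% higher and 24.7% lower. Of the 2448 called higher genes that were tested in both, 1123 (45.9%) were called higher there as well, 43.8% of the 2566 called higher there, and 181 (7.39%) were called lower. Of the 2431 called lower genes, 1406 (57.8%) were called lower there as well, 42.8% of the 3288 called lower there, and 133 (5.47%) were called higher. Over 13234 genes, Pearson's r between the interactions was 0.56 and Spearman's rho 0.48, a description across genes, which are not replicates.

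Among the lists, 13 of 20 interferon genes, 11 of 16 MHC class I genes, 17 of 26 chemokines and cytokines and all 27 ribosomal protein genes were lower in the FIP and DPP4_pos libraries too. Their medians were smaller in size there, at -0.60, -0.65, -0.85 and -0.48. Cxcl13 had -3.74 ± 0.27 there, Hoxc10 -5.40 ± 0.29, Mmp3 -3.78 ± 0.24 and Nlrc5 -2.56 ± 0.18. Aldh1a3, at 5.44 in the APC and DPP4_neg libraries, had 0.50 ± 0.15, and Sfrp4, at -3.32, had 0.03 ± 0.10. Csf2, at -4.02, had 0.28 ± 0.24. The committed preadipocyte list had 1 higher and 10 lower of 16 in the APC and DPP4_neg libraries, and 8 higher and 4 lower of 15 in the FIP and DPP4_pos libraries. Krt8 had 7.45 ± 0.53, on 105, 199 and 119 normalised counts in F_DPP4_pos. The difference between the 2 interactions was not tested.

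**Figure D5:**
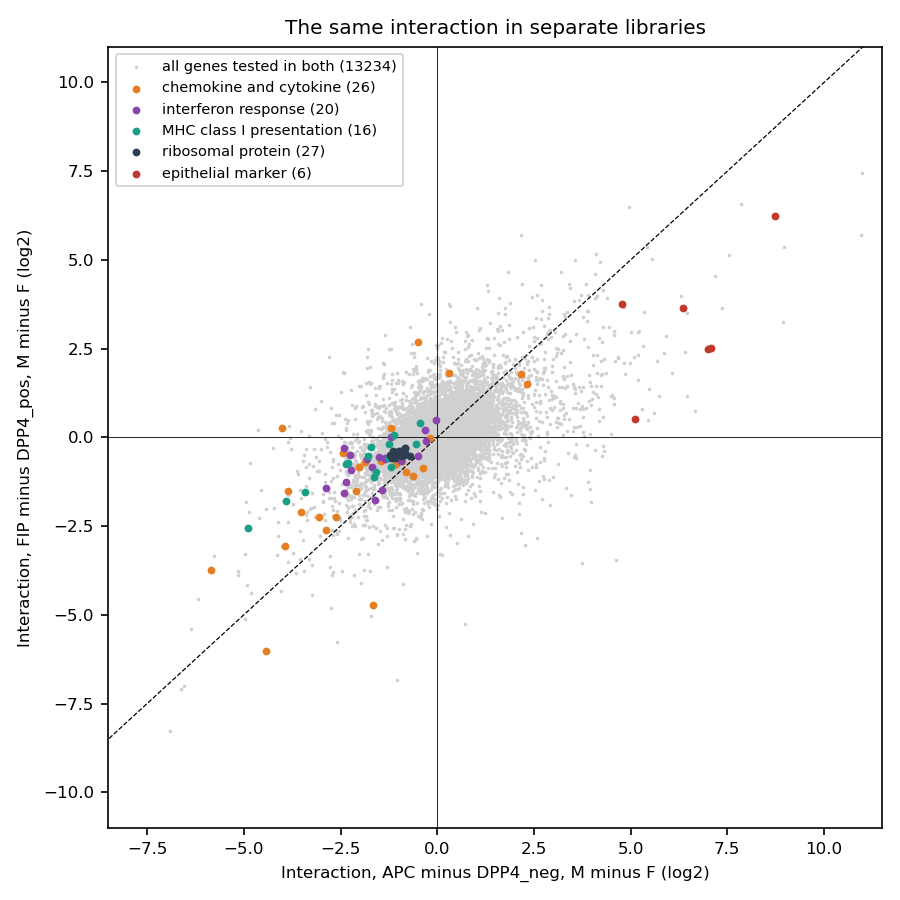
Interaction (log2) in the APC and DPP4_neg libraries on the x axis and in the FIP and DPP4_pos libraries on the y axis, with 1 point per gene tested in both (13234), members of 5 lists in colour and a dashed line where both are equal. The interferon, MHC class I, chemokine and ribosomal members lie mostly at negative values on both axes, and the 6 epithelial markers tested in both lie at positive values.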

How the data were processed

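Members and gene lists were chosen with earlier results of these data known. RNA was prepared with Trizol and the NEBNext Ultra II kit, per the labels' protocols. DESeq2 1.6.3, featureCounts 1.4.6, HISAT2 2.0.1 and Trim Galore 0.4.1 are named, per the submitters' processing notes, beside GRCm38 and mm10. What each tool was run for, which annotation was used and whether strand was counted are not given in the sources used here. Values were deposited by the authors as a normalised signal per gene: each library had a step of which 100% of its values were whole multiples, to 0.01 read, which is what counts divided by 1 size factor give. Dividing by the step gave whole reads, used in edgeR and DESeq2 as alternatives. Rows with no symbol held 0.0737% of the reads of a library or less.

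From these values, log2(value + 1) was fitted with limma 3.58.1 in R 4.3.3, with 1 mean per group, a mean-variance trend and the 12 libraries of the 4 groups. The filter was a value of 10 or more in 3 or more libraries, and 4360 genes were at 0 in all 12. Adjusted p-values are Benjamini-Hochberg over the 14168 genes, with a threshold of 0.05, and errors are standard errors unless stated. Fold changes on this scale understate the change of low genes. Pairs of libraries of a group correlated at r of 0.982 to 0.991 and differed by 2.19 to 26.6 chi-square per degree of freedom, so none agreed within sampling noise. The fit was tested on simulated data.

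Named genes were called genes with a mean of at least 100 in at least 1 group and no predicted or clone-like name. They were the 12 highest and 12 lowest, 6 of the 546 eligible genes with opposite called depot differences (those with the largest smaller difference) and up to 3 called members of each of 34 lists. Esr1, Isg15, B2m and Epcam were added after their values were seen. Some genes that the rule names are left out of the text. Coordinates come from RefSeq genes on GRCm38, matched by Entrez identifier. Alternatives were a pseudocount of 5, no filter, a filter of 50, all 24 libraries, quantile normalisation, no trend, a replicate block, edgeR 4.0.16, DESeq2 1.42.0, each library left out and, added later, CPM and the FIP and DPP4_pos libraries.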

Additional observations from a re-analysis of the deposited data

Results flagged for a closer look

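Every called gene is by construction one whose depot difference differs between males and females by the limma interaction. The 6 genes here are those in which the depot difference was called in both sexes with opposite signs and was largest in the sex where it was smaller, among 546 eligible genes. Their interactions, on the log2(normalised count + 1) scale, were 10.28 for Gria1, 10.99 for Krt8, 8.94 for Nxph3, 8.97 for Enpp6, 7.08 for Krt7 and -6.17 for Nrn1. Gria1, Krt8, Nxph3, Enpp6 and Krt7 were higher in the gonadal libraries of males and in the inguinal libraries of females, and Nrn1 was the other way round. Krt8 and Krt7 belong to the mesothelial and epithelial marker lists, and the epithelial sum was highest in F_DPP4_neg. In each of the 6 genes at least 1 group was close to 0, so the size of the interaction depends on the pseudocount. With 3 libraries in each group, single libraries were not tested as outliers.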

How the results depend on the processing

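The direction and call of 87 of 105 named genes were kept under all 22 alternatives run, and 18 lost the call under at least 1. Mcm4, called at -0.38, changed sign with CPM scaling (0.0101, limma adjusted p = 0.96), and the cause was not tested. That scaling moved the median of all tested genes from 0.05 to 0.44. Mcm4 also lost the call with no filter (limma adjusted p = 0.056), with no trend (0.065) and without several single libraries (up to 0.125). CPM scaling gave 6277 called higher and 1256 called lower genes, against 2744 and 2509 on the deposited scale, and in the FIP and DPP4_pos libraries 4311 and 1992. Leaving out 1 library gave 4580 to 5549 called genes, 2341 to 2833 higher and 2226 to 2716 lower, 559 to 713 with opposite depot differences, 321 to 353 called list members and 1142 to 1346 called genes with F_DPP4_neg apart. In the FIP and DPP4_pos libraries it gave 5315 to 5817 called, 2248 to 2531 higher and 3067 to 3332 lower. In edgeR 10 named genes lost the call, mostly genes near 0 in 3 groups. The numbers of the replicates are not a stated pairing: deviations of same-numbered libraries correlated between -0.19 and 0.12, over 0.1 in 2 of 18 pairs, and 4 of 12 libraries correlated best with their own number. With a replicate block 5156 genes were called. Depth limits genes near 0, where 1 read is worth 0.774 to 1.38 normalised counts.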

Other observations

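Markers of the sorted population were not even across the groups. Ly6a, the stem cell antigen Sca-1, had 3740.1 to 4094 normalised counts in M_APC against 15468 to 22340 in M_DPP4_neg, and 4772 to 6593 in F_APC against 7284 to 10444 in F_DPP4_neg. All 3 M_DPP4_neg libraries lay above the others, and the interaction was -1.71 ± 0.22 (SE, limma adjusted p = 1.4e-05). Ly6c1, an interstitial progenitor marker with near-identical copies, was lower at -2.34 ± 0.33 (limma adjusted p = 4.4e-05). Anxa3, an annexin of the same list, was higher at 1.72 ± 0.39 (limma adjusted p = 0.0024), with 612 to 921 in the other groups and 4899.5, 1955 and 1519 in F_DPP4_neg. Of the 16 interstitial progenitor genes 5 were higher and 1 lower, and 4 were lower without F_DPP4_neg replicate 1. These 16 genes summed to 39729 to 44038 in M_APC against 40734 to 51556 in M_DPP4_neg. In females the sums were 86525 to 91797 in F_APC against 221089 to 292703 in F_DPP4_neg. Of 10 mesothelial markers 4 were higher, Krt8, Krt18, Krt19 and Wt1, and 2 lower, Upk3b and Upk1b, and with quantile normalisation 4 were higher and 4 lower. Of 7 Schwann cell markers 2 were higher and 1 lower.

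Several Y-linked genes were called lower, with reads present in female libraries. Ddx3y, an RNA helicase, had an interaction of -1.31 ± 0.28 (SE, limma adjusted p = 0.0018), with 2077 to 2260.1 in M_APC against 2220.1 to 2374 in M_DPP4_neg, and 70.2 to 124 in F_APC against 26.2 to 51.2 in F_DPP4_neg. Of the 9 tested genes of the X-inactivation and Y-linked list 5 were lower and 0 higher. The lower count was 3 with a pseudocount of 5 and 3 without M_DPP4_neg replicate 3, and with CPM 1 was lower and 1 higher.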
